A study of Mus musculus with 12 samples.

Results

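Mitochondrial fatty acid β-oxidation was followed through 33 genes in interscapular brown adipose tissue (BAT) of mice lacking thioredoxin-interacting protein (Txnip-/-) and of wild type (WT) littermates. The genes were taken by symbol from a table of TPM, a transcript abundance scaled to transcript length and library size, that lists 25124 genes, and all 33 were found in it. Bulk poly-A RNA-seq was made from male mice aged 10 weeks that had spent 1 week at 23 °C, called room temperature (RT), or at 30 °C, called thermoneutrality (TN). There were 3 libraries in each of the 4 groups: WT at RT, Txnip-/- at RT, WT at TN and Txnip-/- at TN. The deletion was present in the whole body, so a difference between genotypes was not limited to brown adipocytes. In whole tissue, fewer cells of a type and less RNA per cell cannot be told apart.

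Fatty acids enter this pathway as acyl-CoA thioesters, cross the inner mitochondrial membrane bound to carnitine, and are shortened in repeated cycles of dehydrogenation, hydration, a further dehydrogenation and thiolysis. Electrons from the first dehydrogenation pass through the electron transfer flavoproteins to ubiquinone, and malonyl-CoA, the first intermediate of fatty acid synthesis, inhibits entry at carnitine palmitoyltransferase 1. In BAT, the pathway supplies acetyl-CoA and reducing equivalents for heat production through uncoupling protein 1.

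The promoters of 3 members with temperature effects described below are shown as the 250 bases before the start site, from RefSeq on GRCm38.p6. Capitals mark the GC box letters GGGCGG or their reverse complement, which all 3 windows hold. Acsl1 lies at chr8:46470787-46471036 (plus strand), Slc25a20 at chr9:108661886-108662135 (plus strand) and Hadhb at chr5:30155003-30155252 (plus strand).
Acsl1: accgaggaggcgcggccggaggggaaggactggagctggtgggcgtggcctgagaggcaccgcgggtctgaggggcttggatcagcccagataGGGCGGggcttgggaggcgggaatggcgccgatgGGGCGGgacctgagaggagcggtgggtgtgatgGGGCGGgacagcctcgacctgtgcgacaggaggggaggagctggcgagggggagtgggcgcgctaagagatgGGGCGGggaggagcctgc
Slc25a20: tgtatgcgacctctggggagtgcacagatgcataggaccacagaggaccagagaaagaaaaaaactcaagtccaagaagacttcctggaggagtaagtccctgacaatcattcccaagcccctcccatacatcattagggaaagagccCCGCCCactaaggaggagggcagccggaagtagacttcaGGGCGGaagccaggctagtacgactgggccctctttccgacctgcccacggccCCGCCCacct
Hadhb: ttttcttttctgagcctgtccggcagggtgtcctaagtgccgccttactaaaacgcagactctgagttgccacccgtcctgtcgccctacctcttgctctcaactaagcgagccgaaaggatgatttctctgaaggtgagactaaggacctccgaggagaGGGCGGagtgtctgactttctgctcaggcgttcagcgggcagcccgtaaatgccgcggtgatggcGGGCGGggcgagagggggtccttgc
Hadhb and Hadha are transcribed away from each other, with 272 bases between their start sites, so this window lies between both genes. RefSeq promoter windows were matched for 29 of the 33 members, and some genes had more than 1 window. The GC box letters, searched on both strands, were in 20 of 32 member windows and in 32.7% of all 32851 windows. CCAAT was in 15 member windows and in 33.8% of all windows. The nuclear receptor core motif AGGTCA was in 6 member windows, of Acadm, Acadvl, Acsl6, Cpt1a, Cpt1c and Echs1, and in 14% of all windows. The E-box CACGTG was in 1 member window, of Acsm5, and in 6.02% of all windows. The palindromic motif of nuclear respiratory factor 1 was in the windows of Acad12 and Etfdh and in 0.782% of all windows. The direct repeat motif DR1, built from AGGTCA repeated after a spacer of 1 base, was in no member window and in 0.0335% of all windows. These are matches of letters in 250 bases and no measure of binding.

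The libraries held 29.93 to 47.44 M reads by the file headers. Txnip was at 564 to 694 TPM in WT and 24.8 to 35.4 TPM in Txnip-/- at RT, and at 1072 to 1238 TPM in WT and 10.5 to 14.4 TPM in Txnip-/- at TN, as the genotype labels say. The summed level of 10 brown adipocyte markers was 29680 to 30550 TPM in WT at RT, 25900 to 30870 in Txnip-/- at RT, 21310 to 23090 in WT at TN and 18250 to 19980 in Txnip-/- at TN. This sum is mostly Fabp4, at 16388 TPM on average in WT at RT and 16507 in Txnip-/- at RT, which like Adipoq, Plin1 and Pparg of the same list is a general adipocyte gene. Of the genes known for brown fat in the list, Ucp1 averaged 3982, 3033, 814 and 249 TPM, Cox8b 3539, 2852, 2685 and 1134 TPM and Cox7a1 1472, 1117, 1070 and 774 TPM in the same order of groups. Dio2 averaged 65.8, 31.2, 2.96 and 1.06 TPM, Cidea 2578, 2296, 2485 and 1725 TPM and Prdm16 9.09, 10.7, 8.02 and 5.91 TPM. At RT, each WT library was above each Txnip-/- library for Cox8b, Cox7a1 and Dio2, while Ucp1, Cidea and Prdm16 overlapped. The 12 macrophage markers summed to 84.1 to 98.8 TPM, 138.5 to 222.9, 180.3 to 311.9 and 504.6 to 716.4 in the same order of groups. The 6 fibroblast markers summed to 203.3 to 257.8, 252.9 to 307.9, 345.1 to 470 and 825.1 to 832.7 TPM. The 12 skeletal muscle markers summed to 6.15 to 6.71, 25.8 to 60.1, 8.16 to 25.2 and 7.81 to 22 TPM, and the 9 lymphocyte markers to 4.32 to 6.03, 7.69 to 10.1, 9.69 to 19.6 and 29.6 to 33.6 TPM. Several muscle and lymphocyte markers passed the level filter only through the groups where they were high, so these lists are given by their sums and not by counts of calls across groups. Replicate 1 of WT at TN stood apart in the pathway, since it was the highest of its group for 27 of the 32 tested members, and at RT replicate 1 of Txnip-/- and replicate 3 of WT were each the lowest of their group for 21. Replicate 1 of WT at RT was the highest of its group for 19. The counts of members called without these libraries stand beside the counts they touch.

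The summed level of the members was 21836 to 22715 TPM in WT at RT, which is 3.794 to 3.978% of the TPM of all listed genes. It was 19375 to 21016 TPM in Txnip-/- at RT, 17145 to 20169 TPM in WT at TN and 15704 to 16095 TPM in Txnip-/- at TN. No library of one group overlapped any library of the next group in this order, except that replicate 1 of WT at TN, at 20169 TPM, was above the lowest library of Txnip-/- at RT. The other libraries of WT at TN were at 17494 and 17145 TPM. TPM is scaled for transcript length, so levels can be set side by side between genes. The highest group means in WT at RT were those of Acaa2 at 2555 ± 34.3 TPM (SD, n = 3), Acadl at 2158 ± 102 and Acadvl at 1946 ± 42.1, which encode a thiolase and the dehydrogenases for long-chain and very-long-chain acyl-CoA. At the other end, Acsl6, an acyl-CoA synthetase, reached at most 0.182 TPM in any library and was not tested.

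Temperature was compared within each genotype, as TN minus RT. Differences are log2 fold changes of TPM + 1 with their standard error (SE), tested with limma across all genes with a mean of at least 1 TPM and adjusted by Benjamini-Hochberg. A gene was called when TPM + 1 was more than 25% higher or 20% lower with an adjusted p below 0.05. In WT, 15 of 32 tested members were lower at TN and 0 were higher. Of all 12486 genes tested, 6.39% were called lower and 31.4% higher. At an unadjusted p below 0.05, 20 of 32 members and 56.9% of all genes differed, and with a pseudocount of 0.1 limma called 1 member, Acad10, higher. In Txnip-/-, 18 members were lower and 4 were higher at TN, where 8.27% of all genes were called lower and 30.9% higher. The same 15 members that were lower in WT were also lower in Txnip-/-, and the other 3 were Acss1, Acadl and Eci1. Without replicate 1 of WT at TN, Acss1 and Eci1 were also called lower in WT, which gave 17 members. Without replicate 3 of WT at RT, Eci1 was called and Cpt1b was not, and without replicate 1 of WT at RT Cpt1b was not called and Acad10 was called higher. Without replicate 1 of Txnip-/- at RT, Acad9 was called lower in Txnip-/- and Acss1 was not, and Cpt1a was not called higher. Without replicate 2 of WT at TN, Acads, Cpt1b and Hadhb lost their call in WT, which left 12 members, and without replicate 3 Acadvl did too, which left 11. In Txnip-/-, Acad11 lost its call without replicate 2 or 3 at RT or replicate 3 at TN. The median member difference was -0.32 in WT and -0.39 in Txnip-/-, and the median over all tested genes was 0.18 and 0.15. Relative to that upward shift of all genes, the member medians were -0.50 and -0.54. When each library was centred on its median, 21 members in WT and 20 in Txnip-/- were called lower and 0 and 1 higher. This centring moved the share of higher calls among all called genes from 83.1% to 51.1% in WT and from 78.9% to 48.5% in Txnip-/-.

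**Figure D1:**
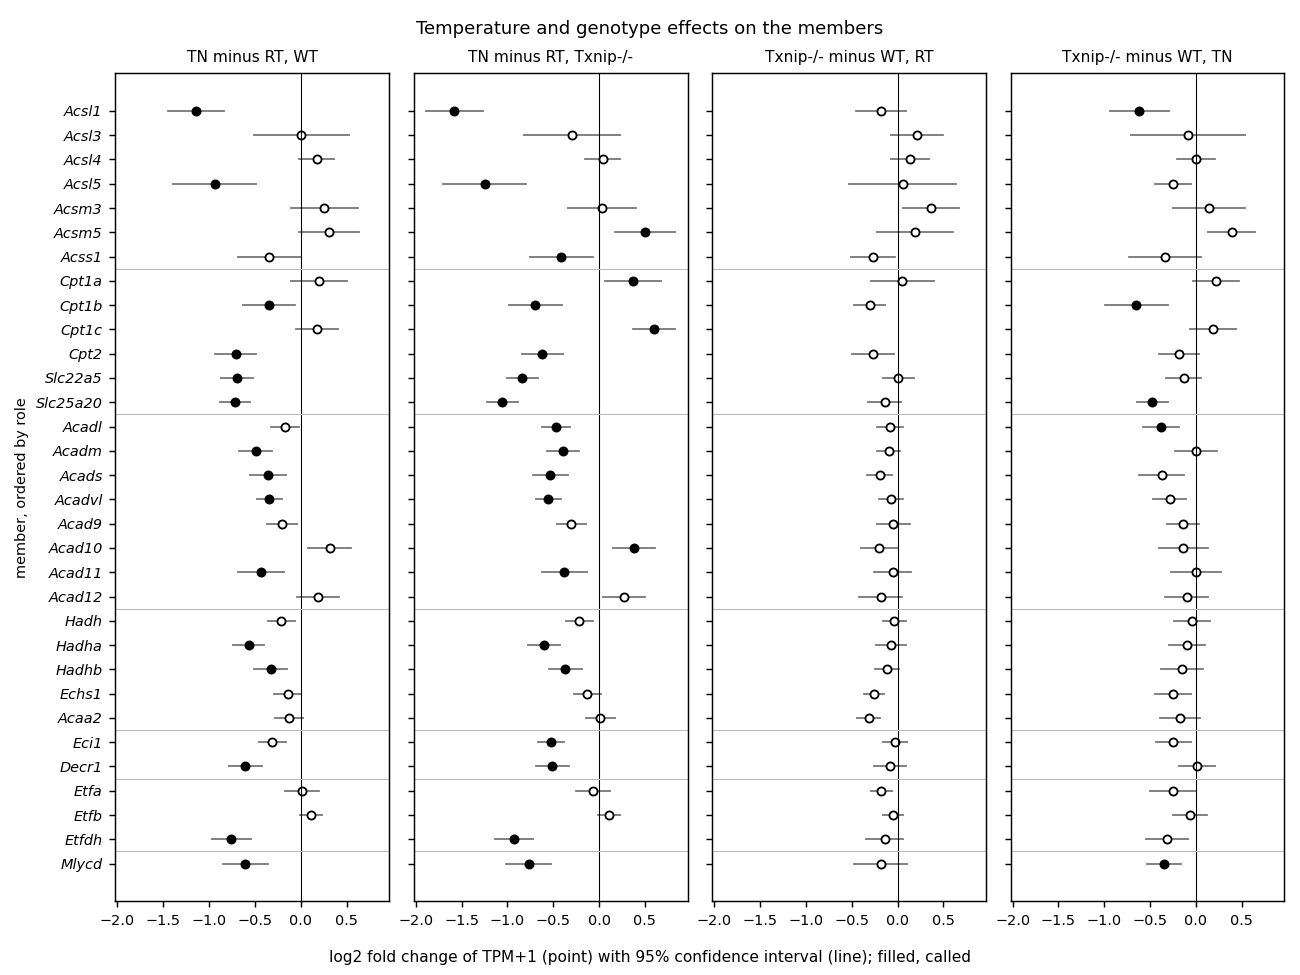
Log2 fold changes of TPM + 1 for 32 members (rows, grouped by role) in 4 comparisons (panels), with 95% confidence intervals as lines and filled points for called members. Filled points number 15 and 22 in the temperature panels, 0 in the genotype panel at RT and 5 in the genotype panel at TN.

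Acyl-CoA synthetases activate fatty acids before they are oxidized or esterified, and those of the Acsl family act on long chains. Acsl1 (mm10, chr8:46471037-46536051) was the main Acsl transcript of the tissue, with 81 to 88.7% of Acsl TPM in WT at RT. It was at 1114, 1108 and 1055 TPM in WT at RT, 808, 1138 and 970 TPM in Txnip-/- at RT, 599, 426 and 472 TPM in WT at TN, and 310, 291 and 368 TPM in Txnip-/- at TN. Every TN library was below every RT library, and at TN every Txnip-/- library was below every WT library. The temperature difference was -1.14 (SE 0.14, limma adjusted p = 0.000159) in WT and -1.58 (SE 0.14, limma adjusted p = 1.33e-05) in Txnip-/-, the largest fall among the members in each genotype. Acsl5 was at 124, 118 and 221 TPM in WT at RT, 132, 191 and 144 TPM in Txnip-/- at RT, 73.2, 83.8 and 73.1 TPM in WT at TN, and 70.1, 60.2 and 62.5 TPM in Txnip-/- at TN. Replicate 3 of WT at RT was the high one, and all RT libraries were above all TN libraries. Its temperature difference was -0.94 (SE 0.21, limma adjusted p = 0.00322) in WT and -1.25 (SE 0.21, limma adjusted p = 0.000465) in Txnip-/-.

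Of the other 5 tested activating enzymes, 1 was lower and 1 higher at TN in Txnip-/-, and none was called in WT. Acsl3 was at 11.5 to 22.8 TPM and Acsl4 at 9.05 to 11.8 TPM over the 12 libraries, and neither was called in any comparison. Acsm3, a medium-chain acyl-CoA synthetase, was at 82.8 to 150.2 TPM and was not called either. Acsm5, of the same family, was at 1.28 to 1.68 TPM in Txnip-/- at RT and 2.5 to 2.66 TPM in Txnip-/- at TN, and was called higher at TN in Txnip-/- (0.50, SE 0.15, limma adjusted p = 0.0153). Acss1, the mitochondrial acetyl-CoA synthetase, was at 84.7 to 99.6 TPM in Txnip-/- at RT and 62.5 to 74.5 TPM in Txnip-/- at TN, and was called lower at TN in that genotype (-0.41, SE 0.16, limma adjusted p = 0.0451). This call was lost with no filter, with the replicate block and in 8 of the 12 fits that left out 1 library, and the adjusted p ran from 0.00783 to 0.143 over 18 alternatives. In WT, its groups overlapped, at 94.1 to 118 TPM at RT and 66.8 to 111.6 TPM at TN.

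In the carnitine shuttle, the same 4 of 6 members were lower at TN in WT and in Txnip-/-. The other 2, Cpt1a and Cpt1c, were called higher in Txnip-/-, a share close to the 30.9% of all genes called higher there. Slc25a20 (chr9:108662136-108684642), the carrier that exchanges acylcarnitine for carnitine across the inner membrane, was at 581, 571 and 543 TPM in WT at RT, 457, 552 and 532 TPM in Txnip-/- at RT, 371, 328 and 331 TPM in WT at TN, and 243, 240 and 255 TPM in Txnip-/- at TN. The RT libraries were all above the TN libraries, and the 3 Txnip-/- libraries at TN were the lowest of the 12. Its temperature difference was -0.72 (SE 0.08, limma adjusted p = 7.71e-05) in WT and -1.05 (SE 0.08, limma adjusted p = 6.64e-06) in Txnip-/-. Cpt2, the carnitine palmitoyltransferase of the inner membrane, was at 305.5 to 334 TPM in WT at RT and 182 to 213 TPM in WT at TN, and its difference was -0.71 (SE 0.10) in WT and -0.62 (SE 0.10) in Txnip-/-. Slc22a5, the plasma membrane carnitine transporter, was at 43.7 to 49.95 TPM in the RT libraries and 23.8 to 30.7 TPM in the TN libraries, with a difference of -0.70 (SE 0.08) in WT and -0.84 (SE 0.08) in Txnip-/-.

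Carnitine palmitoyltransferase 1, the step inhibited by malonyl-CoA, is encoded by Cpt1a, Cpt1b and Cpt1c. Cpt1b (chr15:89416405-89425862), the form of muscle and brown fat, carried 98.6 to 99% of Cpt1 TPM in WT at RT and 95.3 to 97.2% in Txnip-/- at TN. It was at 598, 584 and 572 TPM in WT at RT, 425, 503 and 498 TPM in Txnip-/- at RT, 531, 431 and 424 TPM in WT at TN, and 283, 244 and 362 TPM in Txnip-/- at TN. Replicate 1 was the highest WT library at TN, while all 3 WT libraries at TN lay below those at RT. Its temperature difference was -0.35 (SE 0.13, limma adjusted p = 0.0433) in WT and -0.69 (SE 0.13, limma adjusted p = 0.00108) in Txnip-/-. In WT the adjusted p ran from 0.00941 to 0.130 over 18 alternatives. Cpt1a, the liver form, was at 6.28 to 6.94 TPM in Txnip-/- at RT and 7.68 to 10.3 TPM in Txnip-/- at TN (0.37, SE 0.14, limma adjusted p = 0.0430). Cpt1c, a form known from neurons, was at 0.692 to 0.961 TPM and 1.55 to 1.93 TPM in the same groups (0.60, SE 0.10, limma adjusted p = 0.000644). It averaged 0.786 TPM in Txnip-/- at RT, was the 1 member besides Acsl6 left untested by genotype at RT, and passed the filter here through the TN groups, so its call is a description of a gene near the filter. Of the 4 members called higher in Txnip-/- (Acsm5, Cpt1a, Cpt1c and Acad10), 2 remained after upper-quartile scaling and 1, Cpt1c, after median centring. Without replicate 2 of Txnip-/- at RT, Cpt1c was again the 1 member called higher. Cpt1a kept its call in 6 of 18 alternatives, with limma adjusted p from 0.0131 to 0.267. Cpt1b shares 2744 of its 3372 exonic bases with Gm44502 on the same strand in GENCODE vM21, and reads of these genes could not be told apart.

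**Figure D2:**
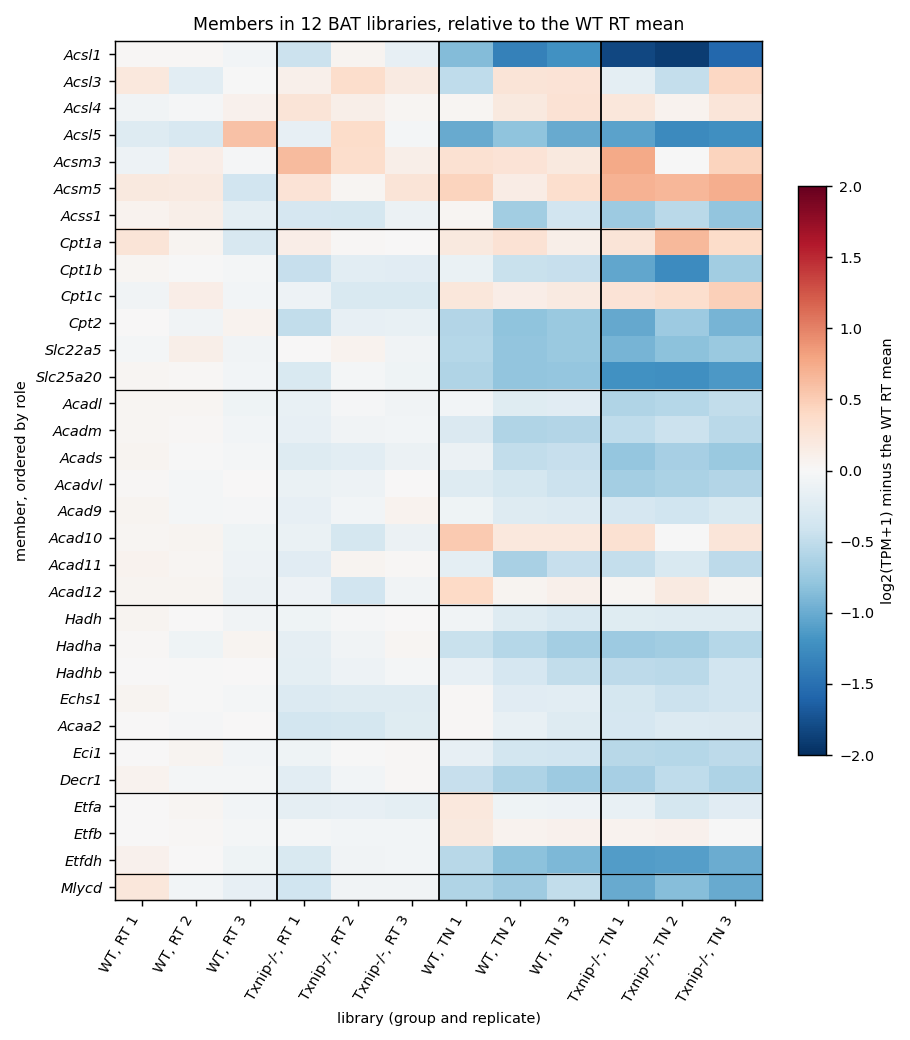
Log2(TPM + 1) of 32 members (rows, grouped by role) in each of 12 libraries (columns), minus the mean of WT at RT, with blue for lower and red for higher. Acsl1, Acsl5, Slc25a20, Etfdh and Mlycd are blue in all TN libraries, and replicate 1 of WT at TN is paler than the other TN libraries in most rows.

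Acyl-CoA dehydrogenases start each cycle and differ by the chain length they accept. In WT, 4 of 8 were lower at TN, Acadm, Acads, Acadvl and Acad11, and in Txnip-/- these 4 and Acadl were lower while Acad10 was higher. Acadvl, for very long chains, was at 1904 to 1988 TPM in WT at RT, 1768 to 1960 TPM in Txnip-/- at RT, 1447 to 1630 TPM in WT at TN and 1219 to 1292 TPM in Txnip-/- at TN. Its temperature difference was -0.35 (SE 0.06) in WT and -0.56 (SE 0.06) in Txnip-/-. Acadm, for medium chains, was at 1557 to 1794 TPM in the RT libraries and 1152 to 1426 TPM in the TN libraries, with a difference of -0.49 (SE 0.08) in WT and -0.39 (SE 0.08) in Txnip-/-. Acads, for short chains, had a difference of -0.35 (SE 0.09) in WT and -0.53 (SE 0.09) in Txnip-/-. Acadl (chr1:66830839-66863309), for long chains, was at 2221, 2213 and 2041 TPM in WT at RT, 1941, 2123 and 2055 TPM in Txnip-/- at RT, 2086, 1814 and 1850 TPM in WT at TN, and 1416, 1455 and 1539 TPM in Txnip-/- at TN. The WT groups overlapped through replicate 1 at TN, and the Txnip-/- libraries at TN stood below all others. The temperature difference of Acadl was -0.47 (SE 0.07, limma adjusted p = 0.000245) in Txnip-/- and -0.17 (SE 0.07, limma adjusted p = 0.0586) in WT.

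Of the less abundant dehydrogenases, Acad11 was at 130.8 to 160.3 TPM in the RT libraries and 97.8 to 134 TPM in the TN libraries, with a difference of -0.43 (SE 0.11) in WT and -0.38 (SE 0.11) in Txnip-/-. Acad10 was at 22.2 to 24.3 TPM in WT at RT and 27.3 to 34.2 TPM in WT at TN, a difference of 0.32 (SE 0.11, limma adjusted p = 0.0270) that stayed under the fold threshold. In Txnip-/- it was at 18.3 to 21.5 TPM at RT and 23.4 to 29.1 TPM at TN, and was called higher (0.38, SE 0.11, limma adjusted p = 0.0107). This call held in 14 of 18 alternatives, with limma adjusted p up to 0.142. It was lost after upper-quartile scaling, after median centring, and without replicate 2 at RT or replicate 1 at TN of Txnip-/-. Acad9, which also takes part in complex I assembly, was at 20 to 28.3 TPM over the 12 libraries, and its difference in Txnip-/- of -0.30 (SE 0.07, limma adjusted p = 0.0055) passed the p threshold but not the fold threshold. Acad12 was at 20.3 to 35.7 TPM and was not called in any comparison, but at TN in Txnip-/- it was close to the threshold (0.27, SE 0.11, limma adjusted p = 0.0504) and was called higher without replicate 3 of Txnip-/- at RT.

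The mitochondrial trifunctional protein, which carries out hydration, dehydrogenation and thiolysis of long chains, is built from the Hadha and Hadhb products. Hadha was at 1415, 1311 and 1443 TPM in WT at RT, 1229, 1319 and 1430 TPM in Txnip-/- at RT, 1017, 933 and 863 TPM in WT at TN, and 839, 854 and 934 TPM in Txnip-/- at TN. All TN libraries were below all RT libraries, while the genotypes overlapped at both temperatures. Hadha differed with temperature by -0.57 (SE 0.08, limma adjusted p = 0.000280) in WT and -0.60 (SE 0.08, limma adjusted p = 0.000118) in Txnip-/-. Hadhb, which starts from the opposite side of the window printed above, differed by -0.33 (SE 0.08, limma adjusted p = 0.00603) and -0.37 (SE 0.08, limma adjusted p = 0.00286). The ratio of Hadha to Hadhb TPM was 1.09 to 1.22 in the 6 RT libraries and 0.937 to 1.03 in the 6 TN libraries, with no overlap. In the short-chain branch, Hadh, the 3-hydroxyacyl-CoA dehydrogenase, was at 1266 to 1394 TPM at RT and 1079 to 1283 TPM at TN, and its differences of -0.21 (SE 0.07) and -0.22 (SE 0.07) passed the p threshold but not the fold threshold. Echs1, the enoyl-CoA hydratase, and Acaa2, the thiolase for medium and short chains, were not called for temperature in either genotype. With each library centred on its median, Hadh was called lower in both genotypes and Echs1 in WT. Acaa2 was at 2517 to 2583 TPM in WT at RT and 2140 to 2591 TPM in WT at TN, and these groups overlapped.

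Decr1 and Eci1 handle double bonds that the core cycle cannot pass, by reducing or shifting them. Decr1, the dienoyl-CoA reductase, was at 365 to 447.5 TPM in the RT libraries and 254.5 to 307 TPM in the TN libraries, and differed with temperature by -0.61 (SE 0.08) in WT and -0.51 (SE 0.08) in Txnip-/-. Eci1, the enoyl-CoA isomerase, was at 886 to 954.6 TPM in WT at RT and 705 to 822 TPM in WT at TN, and at 868 to 934.6 TPM and 619 to 638 TPM in Txnip-/-. Its difference was -0.53 (SE 0.07, limma adjusted p = 8.22e-05) in Txnip-/- and called, and -0.31 (SE 0.07, limma adjusted p = 0.00282) in WT, where the fold missed the threshold.

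Etfa and Etfb encode the subunits of the soluble electron transfer flavoprotein, and Etfdh the membrane enzyme that passes its electrons to ubiquinone. Etfdh was at 680, 640 and 601 TPM in WT at RT, 516, 611 and 618 TPM in Txnip-/- at RT, 436.5, 361 and 343 TPM in WT at TN, and 295, 298 and 320 TPM in Txnip-/- at TN. The ranges of RT and TN libraries did not overlap. The difference was -0.76 (SE 0.10, limma adjusted p = 0.000188) in WT and -0.93 (SE 0.10, limma adjusted p = 2.885e-05) in Txnip-/-. Etfa was at 1292 to 1528 TPM at RT and 1159 to 1714 TPM at TN, Etfb was at 1853 to 1970 TPM at RT and 1927 to 2211 TPM at TN, and neither was called. The ratio of Etfdh to Etfa TPM was 0.393 to 0.479 in the RT libraries and 0.220 to 0.258 in the TN libraries. These ratios are descriptions of transcript levels, with no test. Etfb shares 617 of its 1164 exonic bases with Gm45233 on the same strand.

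**Figure D3:**
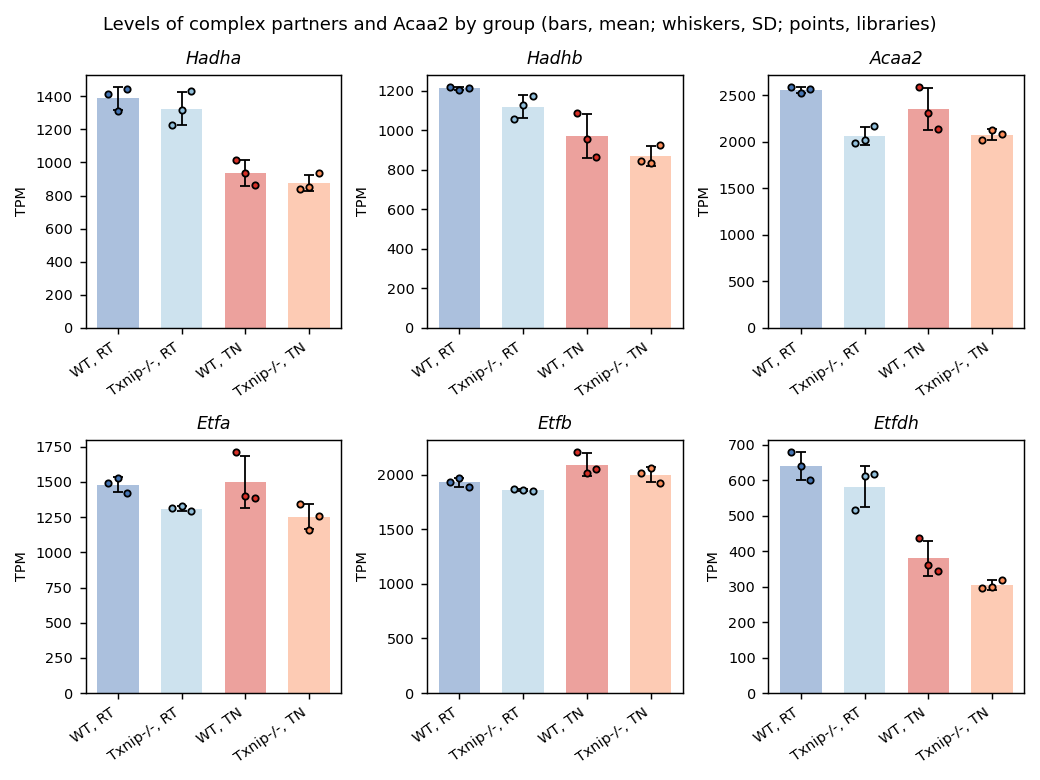
TPM of Hadha, Hadhb, Acaa2, Etfa, Etfb and Etfdh (panels) in 4 groups, with bars for the mean, whiskers for the SD and a point per library (n = 3). Hadha and Etfdh are lower in all TN libraries than in all RT libraries, while Etfa and Etfb are not called for temperature.

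Mlycd (chr8:119394894-119411102) encodes malonyl-CoA decarboxylase, which removes the inhibitor of carnitine palmitoyltransferase 1. It was at 90.4, 74.6 and 69 TPM in WT at RT, 58.7, 73.4 and 73.4 TPM in Txnip-/- at RT, 50.6, 47 and 54.9 TPM in WT at TN, and 38.1, 42.7 and 38.2 TPM in Txnip-/- at TN. Every TN library was below every RT library. Its temperature difference was -0.60 (SE 0.11, limma adjusted p = 0.00132) in WT and -0.77 (SE 0.11, limma adjusted p = 0.000214) in Txnip-/-. The summed TPM of the acetyl-CoA carboxylases Acaca and Acacb, which make malonyl-CoA, was 4.97 to 8.80 times that of Mlycd in WT at RT, 8.72 to 11.3 times in Txnip-/- at RT, 6.22 to 9.61 times in WT at TN and 9.85 to 13.8 times in Txnip-/- at TN. The genotypes did not overlap in this ratio at TN and overlapped at RT.

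Several markers of other cells moved with temperature too. In WT, 10 of 12 macrophage, 6 of 6 fibroblast, 4 of 7 endothelial and 2 of 4 tested white adipocyte markers were higher at TN. In Txnip-/-, the counts were 11, 6, 7 and 2. The macrophage markers Fcgr1 and Itgam, named after their values were seen, are in both counts, averaged under 1 TPM in both RT groups and passed the level filter only through the TN groups, so the summed macrophage level given above is the better description. Of 10 brown adipocyte markers, 5 were lower and 1 higher in WT and 6 were lower in Txnip-/-. Of 6 Schwann cell markers, 1 was lower in WT and 3 were higher in Txnip-/-. The part of these cells in the members' temperature differences was not tested.

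The genotype effect was compared at each temperature, as Txnip-/- minus WT in the 6 libraries of that temperature. At RT, limma called 0 of 31 tested members lower and 0 higher, where 0.726% and 0.76% of all 11980 genes were called lower and higher. At an unadjusted p below 0.05, 9 of 31 members and 16% of all genes differed. Without replicate 1 of Txnip-/- or replicate 1 or 3 of WT, the count of called members was also 0, and limma on the log-scale values deposited for this comparison also called 0. The fitted difference was below 0 for 24 of 31 members, with a median of -0.08 beside 0.03 over all genes. Every Txnip-/- library was below every WT library for 10 members, and for 7.58% of all genes, and above for 0 members and for 1804 of all 11980 genes. Acaa2 came nearest to a call. It was at 2583, 2517 and 2566 TPM in WT and 1988, 2013 and 2169 TPM in Txnip-/-, a difference of -0.31 (SE 0.05, limma adjusted p = 0.0440) at a fold of 0.804, which just misses the threshold of 0.8. Echs1 was at 894, 854 and 835 TPM in WT and 715, 723 and 721 TPM in Txnip-/- (-0.26, SE 0.05, limma adjusted p = 0.0534). Cpt1b, with the values given above, differed by -0.30 (SE 0.07, limma adjusted p = 0.103), Acads by -0.20 (SE 0.06, limma adjusted p = 0.156) and Etfa by -0.18 (SE 0.05, limma adjusted p = 0.146). In each of these 5 genes, the groups at RT did not overlap. The largest member difference at RT was upward, in Acsm3, and not called (0.37, limma adjusted p = 0.226). Acsm3 was at 82.8 to 96.9 TPM in WT and 96.4 to 137.9 TPM in Txnip-/-, and these groups overlapped. Of the markers, 3 of 10 tested macrophage markers were higher in Txnip-/- at RT, 1 of 10 brown adipocyte and 1 of 6 Schwann cell markers were lower, and no fibroblast, endothelial or white adipocyte marker was called by limma, though 3, 2 and 0 of them differed at an unadjusted p below 0.05. The summed skeletal muscle markers, given above, were higher in all 3 Txnip-/- libraries than in all 3 WT libraries at RT. The part of these cells was not tested, and the muscle markers together reached at most 60.1 TPM in any library.

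At TN, 5 of 32 tested members were lower in Txnip-/- by limma and 0 were higher, and 13 of 32 members and 25.6% of all genes differed at an unadjusted p below 0.05. Of all 12891 genes, 2.17% were called lower and 6.49% higher. The members called were Acsl1, Cpt1b, Slc25a20, Acadl and Mlycd, which act in activation, in the making and transport of acylcarnitine, in the first dehydrogenation of long chains, and in malonyl-CoA removal. The study itself displayed genes of this pathway that were lower in this comparison of these libraries, so their direction is not independent evidence. The fitted difference was below 0 for 24 of 32 members, with a median of -0.15 beside 0.01 over all genes. Every Txnip-/- library was below every WT library for 14 members, and for 13.4% of all genes, and above for 2 members and 17.7% of all genes.

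**Figure D4:**
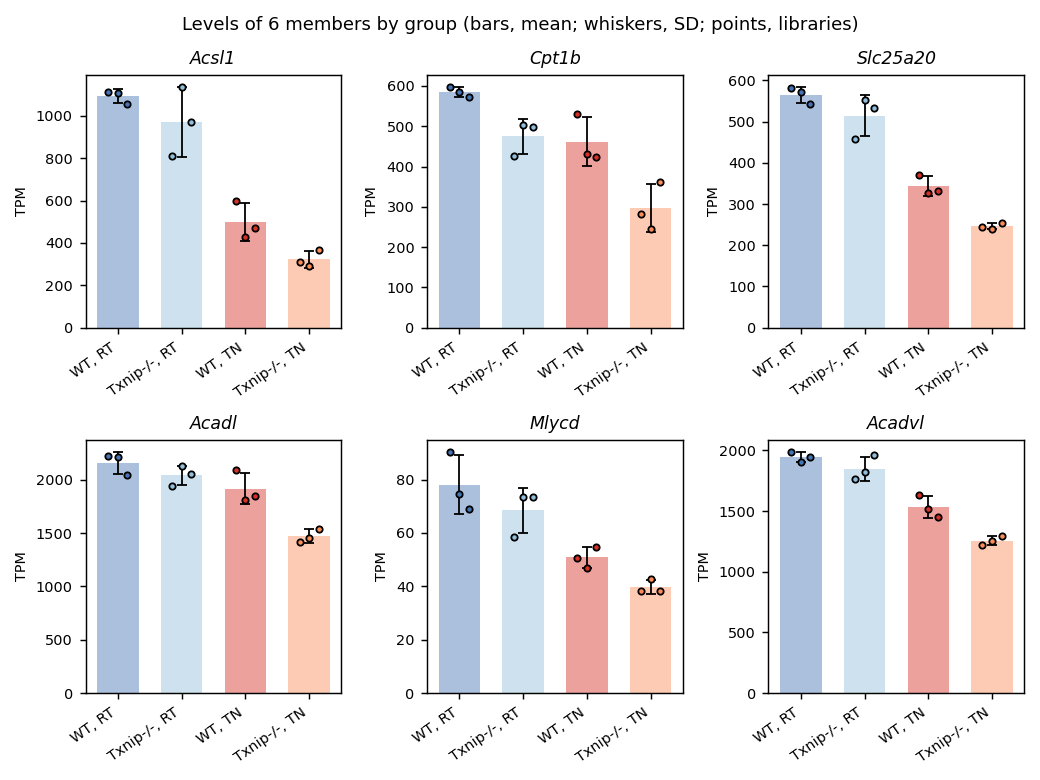
TPM of the 5 members called lower in Txnip-/- at TN (Acsl1, Cpt1b, Slc25a20, Acadl, Mlycd) and of Acadvl in 4 groups, with bars for the mean, whiskers for the SD and a point per library (n = 3). In each of the 6 genes, the 3 Txnip-/- libraries at TN lie below the 3 WT libraries at TN.

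Slc25a20 was lower in Txnip-/- at TN by a difference of -0.48 (SE 0.07, limma adjusted p = 0.00979), a fold of 0.719. Cpt1b differed by -0.65 (SE 0.15, limma adjusted p = 0.0355), Acsl1 by -0.62 (SE 0.14, limma adjusted p = 0.0327), Acadl by -0.38 (SE 0.09, limma adjusted p = 0.0331) and Mlycd by -0.35 (SE 0.08, limma adjusted p = 0.0358). These calls differed in how far they depended on single libraries. Slc25a20 was called in all 13 alternatives, with adjusted p from 0.00248 to 0.0480. It was the 1 member called without replicate 1 or replicate 3 of WT, or without replicate 1 or replicate 2 of Txnip-/-. Without replicate 2 of WT or without replicate 3 of Txnip-/-, 3 members were called. Acsl1 kept its call in 8 of the 13, Cpt1b in 7, and Acadl and Mlycd in 4 each. Acadl lost its call without any 1 of the 6 libraries, with no filter, with the replicate block and on the deposited log-scale values. Acsl1 ran from 0.0157 to 0.109, Cpt1b from 0.00821 to 0.114, Acadl from 0.00533 to 0.165 and Mlycd from 0.0246 to 0.127 in adjusted p over the same 13 alternatives.

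Among the members that missed the threshold at TN, Acadvl was at 1447 to 1630 TPM in WT and 1219 to 1292 TPM in Txnip-/- (-0.29, SE 0.08, limma adjusted p = 0.0582). It was called after upper-quartile scaling and after median centring, each of which gave 6 members. Acads was at 260 to 336 TPM in WT and 213 to 228 TPM in Txnip-/- (-0.37, SE 0.11, limma adjusted p = 0.0656). In 1 fit of all 12 libraries, Acads was called (limma adjusted p = 0.0190) and Mlycd was not (limma adjusted p = 0.0673), and over 13 alternatives the adjusted p of Acads ran from 0.0190 to 0.187. Etfdh (-0.31, SE 0.10, limma adjusted p = 0.0882) and Eci1 (-0.25, SE 0.08, limma adjusted p = 0.102) also had every Txnip-/- library below every WT library. Acsm5 had the reverse order, at 1.45 to 1.99 TPM in WT and 2.5 to 2.66 TPM in Txnip-/- (0.39, SE 0.11, limma adjusted p = 0.0656). The genotypes overlapped for Acadm, at 1152 to 1426 TPM in WT and 1201 to 1299 TPM in Txnip-/-, and for Decr1, at 254.5 to 307 TPM and 267 to 298 TPM, both of which were called lower at TN than at RT in each genotype.

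Markers of several cell types differed between the genotypes at TN. Of 12 macrophage markers 11 were higher in Txnip-/-, of 6 fibroblast markers 6, of 4 tested white adipocyte markers 2, and of 7 endothelial markers 1, while the summed muscle markers overlapped between the genotypes. Of 10 brown adipocyte markers 5 were lower, with Ucp1, which encodes uncoupling protein 1, at -1.72 (SE 0.31, limma adjusted p = 0.0151). Of 6 Schwann cell markers 1 was lower, S100b, the same as at RT, and the fitted differences of the other 5 were above 0. The part of these cells in the members' genotype differences was not tested.

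The genotype by temperature interaction was the genotype effect at TN minus that at RT, in 1 fit of all 12 libraries. Limma called 0 of 32 members and 0.00801% of all genes, which is 1 gene of 12486. At an unadjusted p below 0.05, 6 of 32 members and 12.6% of all genes differed. Slc25a20 had an interaction of -0.34 (SE 0.11, limma adjusted p = 0.261), Acadl of -0.30 (SE 0.10, limma adjusted p = 0.278), Acsl1 of -0.44 (SE 0.20, limma adjusted p = 0.394), Eci1 of -0.22 (SE 0.09, limma adjusted p = 0.364), Acadvl of -0.21 (SE 0.09, limma adjusted p = 0.355) and Cpt1c, which passed the filter through the TN groups, of 0.42 (SE 0.15, limma adjusted p = 0.283). The lists of members lower in Txnip-/- at TN and at RT, and the lists lower at TN in each genotype, are therefore not shown to differ.

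Genes around the pathway were counted in the same fits, with the shares of all genes called as given above. Of 14 tested further acyl-CoA enzymes, 3 were lower and 1 higher at TN in WT, and 5 were lower in Txnip-/-. Crat, the carnitine acetyltransferase, differed by -0.74 (SE 0.10) in WT and -0.82 (SE 0.10) in Txnip-/-, and Acsf2, an acyl-CoA synthetase, by -0.54 (SE 0.10) and -0.58 (SE 0.10). In WT, Acss3 was also lower (-0.51, SE 0.15) and the thioesterase gene Acot13 higher (0.33, SE 0.06), and in Txnip-/- the thioesterase gene Acot2 (-0.57, SE 0.18) and Nudt19 (-0.43, SE 0.08) were lower. In Txnip-/- against WT, limma called 0 at RT, where 3 differed at an unadjusted p below 0.05 and 1 at an adjusted p below 0.05. At TN, 1 was called lower, Acadsb, which acts in branched-chain amino acid breakdown (-0.51, SE 0.10, limma adjusted p = 0.0236). The most abundant of this list was Ech1 at 1489 TPM, and the medians were -0.16 and -0.22 for temperature in WT and Txnip-/-. Of 16 genes of peroxisomal fatty acid oxidation, a separate pathway that shortens very long and branched chains, 6 were lower in WT at TN, and 8 lower and 1 higher in Txnip-/-, with medians of -0.22 and -0.20. The falls of Ehhadh, the peroxisomal bifunctional enzyme, by -2.79 (SE 0.24) in WT and -2.18 (SE 0.24) in Txnip-/-, were larger than any among the mitochondrial members. Acaa1b, a peroxisomal thiolase, differed by -1.81 (SE 0.23) and -2.17 (SE 0.23), and Abcd3, a peroxisomal transporter, by -0.73 (SE 0.10) and -0.996 (SE 0.10). By genotype, 1 peroxisomal gene was lower in Txnip-/- at RT, Abcd2 (-0.67, SE 0.10, limma adjusted p = 0.0284), and 3 at TN, Pecr (-0.52, SE 0.09), Amacr (-0.47, SE 0.08) and Abcd2 (-0.37, SE 0.09). The most abundant was Phyh at 725 TPM.

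Of 13 regulators of fatty acid oxidation genes, 0 were lower and 3 higher at TN in WT, Nr1d1 (0.73, SE 0.19), Pparg (0.56, SE 0.17) and Esrrg (0.50, SE 0.15), and 2 were lower and 1 higher in Txnip-/-. The lower ones were the coactivator gene Ppargc1a (-1.95, SE 0.36, limma adjusted p = 0.000909) and the nuclear receptor gene Esrra (-0.35, SE 0.09), and the higher one was Esrrg (0.40, SE 0.15). In Txnip-/- against WT, limma called 0 regulators at RT, where 1 differed at an unadjusted p below 0.05. At TN, 2 were called lower, Esrra (-0.41, SE 0.08, limma adjusted p = 0.0220) and Nr1d1 (-0.40, SE 0.07, limma adjusted p = 0.0123). At an unadjusted p below 0.05, 6 of 13 regulators and 25.6% of all genes differed at TN. The fitted difference at TN was below 0 for 10 regulators and above 0 for 3, with a median of -0.34. Pparg was the most abundant regulator at 266 TPM. Of 7 genes of FAD supply and flavoprotein modification, 2 were lower in WT and 3 in Txnip-/- at TN, the riboflavin transporter gene Slc52a2 (-0.53 and -0.46, SE 0.11 each) and Etfbkmt (-0.40 and -0.42, SE 0.14 each) in both genotypes and Etfrf1 in Txnip-/- (-0.37, SE 0.06). By genotype, the mitochondrial folate and FAD carrier gene Slc25a32 was higher in Txnip-/- at RT (0.59, SE 0.10, limma adjusted p = 0.0436), and Rfk, which encodes riboflavin kinase (-0.38, SE 0.06), and Etfrf1 (-0.33, SE 0.08) were lower at TN. Etfrf1 was the most abundant of this list at 184 TPM. Of 4 genes of malonyl-CoA synthesis, Acacb alone was called, lower at TN in WT (-0.37, SE 0.14) and in Txnip-/- (-0.44, SE 0.14), and Acly was the most abundant at 825 TPM. By genotype limma called 0 of them, and 2 differed at an unadjusted p below 0.05 at each temperature. The fitted difference was above 0 for 3 and below 0 for 1 at each temperature, with medians of 0.50 at RT and 0.40 at TN. In WT at RT, Acly was at 1312 TPM in replicate 3 and at 456 and 373 TPM in replicates 1 and 2. The 1 tested gene of carnitine synthesis, Aldh9a1, at 77.3 TPM, was called in no comparison by limma. Its temperature differences of -0.21 in WT and -0.23 in Txnip-/- had a limma adjusted p below 0.05 but missed the fold threshold.

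Of 15 genes of mitochondrial content, such as import and prohibitin genes, limma called 0 for temperature in WT. There, 10 differed at an unadjusted p below 0.05 and 8 at an adjusted p below 0.05, but none passed the fold threshold. In Txnip-/-, 4 were called lower at TN, Tomm40 (-0.56, SE 0.10), Timm23 (-0.54, SE 0.06), Phb2 (-0.38, SE 0.06) and Phb (-0.36, SE 0.07). In Txnip-/- against WT, limma called 0 at RT, where 3 differed at an unadjusted p below 0.05, and 2 were lower at TN, Tomm40 (-0.40, SE 0.09) and Timm44 (-0.32, SE 0.07). Their medians were -0.10 and -0.26 for temperature in WT and Txnip-/-, and -0.01 and -0.21 for genotype at RT and TN. The corresponding member medians were -0.32, -0.39, -0.08 and -0.15. Cs, which encodes citrate synthase, was the most abundant of the list at 1198 TPM.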

How the data were processed

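RNA-seq was made of 12 BAT samples, 3 in each of 4 groups defined by the labels. Nothing read here says that same-numbered libraries share a litter or a batch. Reads were mapped by the authors with STAR 2.7.5a on mm10, and exonic reads per gene were counted with HOMER 4.11.1, keeping 1 transcript per gene, and the deposited series table gives TPM with each transcript's length. The deposited tables of each temperature give log2-scale values, whose transformation is not named, and the authors' fold change, p-value and adjusted p-value columns, which were not used. The header names no strand option, so reads of overlapping genes on opposite strands, such as Acadvl with Dvl2 and Acsm3 with Eri2, may have been counted to both. TPM hides raw counts, so a gain in abundant genes lowers the others.

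All of the following was computed from TPM. Values were taken as log2(TPM + 1), which understates changes of low genes, and genes with a mean of at least 1 TPM over the libraries in the fit were tested with limma 3.58.1 (R 4.3.3, eBayes with trend), with Benjamini-Hochberg adjustment over all of them. Genotype effects used the 6 libraries of a temperature, and temperature effects and the interaction used all 12 as 4 group means. Calls needed TPM + 1 more than 25% higher or 20% lower and an adjusted p below 0.05, or the adjusted p alone for the interaction. The scripts were tested on simulated data. Alternatives were a pseudocount of 0.1, no filter, upper-quartile scaling (75th percentile), median centring, a replicate block, other sets of libraries in the fit, each library left out, and the deposited log2-scale values. All 33 members are named, and of every other pathway list the called genes (up to 4 per comparison, by size) and the most abundant gene, except for an item that is not reported here. Cell type markers are given as counts and sums. Members and lists were chosen with earlier results of these data known. Promoter sequences are from RefSeq, and exon overlaps from GENCODE vM21. Plots used Python 3.11.15 with matplotlib 3.10.9.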

Additional observations from a re-analysis of the deposited data

How the results depend on the processing

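None of the member values with an unadjusted p below 0.05 changed sign under any alternative. Of 159 member values over the 5 comparisons, 34 changed sign somewhere, and the largest of these was 0.18 in size. For members lower in Txnip-/- at TN (5), no filter gave 1, the deposited log-scale values gave 3, and leaving out 1 library gave 1 to 3. For members higher at TN in WT (0), a pseudocount of 0.1 gave 1, and leaving out 1 library gave 0 to 1, the 1 being Acad10, called without replicate 1 or 2 at RT or replicate 2 or 3 at TN of WT. For members higher at TN in Txnip-/- (4), upper-quartile scaling gave 2, median centring gave 1, and leaving out 1 library gave 1 to 4. For members lower at TN, leaving out 1 library gave 11 to 17 in WT (main 15) and 16 to 18 in Txnip-/- (main 18). Cpt1b was not called lower at TN in WT without replicate 1, 2 or 3 of WT or 2 or 3 of Txnip-/- at RT, or without replicate 2 or 3 of WT or 1 of Txnip-/- at TN. Acss1 was not called lower at TN in Txnip-/- without replicate 1 or 2 of WT or 1, 2 or 3 of Txnip-/- at RT, or without replicate 3 of WT or 1 or 3 of Txnip-/- at TN. Cpt1a was called higher at TN in Txnip-/- without replicate 1 or 3 of WT at RT or replicate 1 of Txnip-/- at TN, and lost its call without any other library. The cause of these changes was not tested.

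The sample titles number replicates 1 to 3 in every group, while the descriptions number the RT samples 4 to 6 and the TN samples 1 to 3, so across temperatures the block follows the titles alone. Deviations of same-numbered WT and Txnip-/- libraries from their group means correlated at 0.300, -0.0125 and 0.216 at RT and 0.0393, 0.0231 and -0.0289 at TN across genes. At RT, replicates 1 and 3 of WT correlated best with the Txnip-/- library of the same number, and replicate 2 did not. Deviations from a mean of 3 libraries are tied to each other, so these values cannot decide whether the numbers pair the libraries. Not every library correlated best with its own number. The fit with the replicate block called 3 members lower in Txnip-/- at TN, and 14 and 17 lower at TN in WT and Txnip-/-. In the genotype fit at RT and the interaction, the replicate block called 0.

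Medians of all genes moved under scaling: the share of higher calls by genotype went from 74.9% to 65.9% at TN and from 51.1% to 43.7% at RT with median centring. With 3 libraries per group and no deposited counts, depth per gene is unknown. The p-values set each difference against the spread between these libraries within groups, which limma moderated across genes.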
